A study of Mus musculus with 15 samples.

Results

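Divergent gene pairs are neighbouring genes that lie head to head on opposite strands and share the DNA between their start sites as a promoter. The pairs were chosen from the gene annotation alone, with no use of a measured value. On the mouse genome build mm9, 808 pairs of protein-coding genes on chromosomes 1 to 19 and X pointed away from each other with their 5′-most transcription start sites (TSSs) at most 1000 bp apart. They hold 1599 of the 22350 protein-coding genes on these chromosomes, or 7.154%, and 17 genes belong to more than 1 pair. The 808 pairs have 799 distinct names, so some named pairs are counted more than once. The region of a pair was the interval between the TSSs with 2000 bp on each side, and the 808 regions merge into 790 where they overlap. The 20751 protein-coding genes in no pair were the comparison, each with 2000 bp on either side of its 5′-most TSS.

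All peak lists came from CD69-negative, CD4 and CD8 double-positive thymocytes, immature T cells of the thymus, of wild type C57BL/6 mice. Chromatin immunoprecipitation with sequencing (ChIP-seq) had been made in 2 libraries for H3K27ac, 2 for Rad21 and 1 for CTCF. The series also holds 2 input libraries and 8 Hi-C libraries, 4 of wild type cells, 2 of CTCF-/- cells and 2 of CTCF-/-, Rad21-/- cells in which Cre is driven by CD4, and these were not analysed here. No label ties a library to an animal, so the spread between 2 libraries may be technical. Each list describes a population of cells, so a mark in few cells and a weak mark in many cells cannot be told apart.

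H3K27ac, acetylation of lysine on the histone H3 tail, marks active promoters and enhancers. Rad21 is a subunit of cohesin, the ring complex that extrudes loops of chromatin, and CTCF is the zinc finger protein at which extruding cohesin often halts. Bidirectional promoters are known to be rich in CpG islands and in genes of DNA repair and basic metabolism, and to lack a TATA box more often than other promoters.

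The labelled cell type was checked on H3K27ac at the promoters of marker genes. A shared region, which is a merged region with a peak in both libraries of a target, lay at the promoters of all 11 double-positive thymocyte markers found in the annotation, among them Rag1, Rag2, Cd4 and Cd8a. It lay at 0 of 6 myeloid markers, 0 of 5 thymic epithelial markers, 2 of 6 B cell markers and 1 of 4 erythroid markers (Klf1). The H3K27ac lists held 38700 and 24765 peaks with 16230 shared regions, the Rad21 lists 38430 and 48462 peaks with 30959 shared regions, and the CTCF list 35345 peaks. The lists give no reads per peak. The depth of the libraries is therefore unknown, and a missing peak does not show that a protein was absent.

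The TSSs of a pair were a median of 141 bp apart, with quartiles at 73 and 271 bp, and 637 pairs (78.84%) were at most 300 bp apart. The closest, Tubgcp2/Zfp511, had its TSSs 1 bp apart. The interval is therefore short enough to print, and 6 are shown because they carry the kinds of pair described below. All are the plus strand of mm9, 5′ to 3′, with the left gene reading away to the left and the right gene to the right, and all lie wholly between the 5′-most TSSs of the pair. Capitals mark matches, on either strand, to the ETS core CCGGAAG, the NRF1 core GCGCATGC, the GC box GGGCGG, the CCAAT box CCAAT, the E box CAGCTG and the TCF/LEF core CTTTGA.

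Mcm4 encodes a subunit of the replicative helicase and Prkdc the catalytic subunit of the DNA-dependent protein kinase, which joins broken DNA ends. The interval between them is 466 bp long, and the central 300 bases (chr16:15637576-15637875) hold an ETS core and a CCAAT box. Atm, the kinase that signals DNA breaks, and Npat, an activator of histone gene transcription, start 307 bp apart, and the central 300 bases (chr9:53344849-53345148) hold a GC box and 2 CCAAT boxes. Both pairs are shown as acetylated promoters of genes for DNA repair and replication.

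Mcm4/Prkdc: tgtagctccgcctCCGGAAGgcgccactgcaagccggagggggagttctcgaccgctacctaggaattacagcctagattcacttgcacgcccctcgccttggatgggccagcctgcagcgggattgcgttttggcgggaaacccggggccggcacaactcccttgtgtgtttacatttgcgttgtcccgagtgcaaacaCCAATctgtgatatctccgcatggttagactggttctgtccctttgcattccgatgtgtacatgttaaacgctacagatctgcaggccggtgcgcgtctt

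Atm/Npat: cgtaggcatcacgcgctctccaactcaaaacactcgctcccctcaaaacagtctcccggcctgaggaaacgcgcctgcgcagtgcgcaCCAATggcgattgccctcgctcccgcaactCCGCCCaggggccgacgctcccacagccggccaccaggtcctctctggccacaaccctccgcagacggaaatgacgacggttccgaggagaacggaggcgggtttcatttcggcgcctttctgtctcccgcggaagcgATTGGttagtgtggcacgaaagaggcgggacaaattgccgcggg

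Pip4k2a, a phosphoinositide kinase gene, and 4930426L09Rik start 217 bp apart, and the interval (chr2:18919754-18919969) has a GC content of 81.48%, 40 CpGs and 6 GC boxes, some of which overlap. Smyd1, known as a muscle histone methyltransferase, and Cd8b1, the beta chain of the CD8 co-receptor that defines these cells, start 603 bp apart. The central 300 bases of their interval (chr6:71272379-71272678) hold 4 CpGs, an NRF1 core and 2 TCF/LEF cores. These intervals are shown because both pairs had strong Rad21 peaks with no CTCF peak in the region, on very different sequence.

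Pip4k2a/4930426L09Rik: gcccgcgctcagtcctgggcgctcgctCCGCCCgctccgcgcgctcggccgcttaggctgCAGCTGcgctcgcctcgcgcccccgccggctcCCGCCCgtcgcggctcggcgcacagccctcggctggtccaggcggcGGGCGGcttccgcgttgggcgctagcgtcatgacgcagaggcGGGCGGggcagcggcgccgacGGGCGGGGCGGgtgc

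Smyd1/Cd8b1: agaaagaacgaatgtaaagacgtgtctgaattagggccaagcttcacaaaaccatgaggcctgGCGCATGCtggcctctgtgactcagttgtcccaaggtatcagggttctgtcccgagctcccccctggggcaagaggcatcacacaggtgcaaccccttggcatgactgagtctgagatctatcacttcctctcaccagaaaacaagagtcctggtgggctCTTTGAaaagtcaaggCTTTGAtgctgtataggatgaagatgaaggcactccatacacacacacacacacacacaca

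Exd1 and 1500003O03Rik start 70 bp apart (chr2:119373364-119373432), and their region held one of the strongest CTCF peaks at a pair. 1700101I19Rik and Fam123c start 80 bp apart (chr1:34636459-34636537), and their region held no peak of any list although the interval has a GC content of 79.75%, 11 CpGs and a GC box.

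Exd1/1500003O03Rik: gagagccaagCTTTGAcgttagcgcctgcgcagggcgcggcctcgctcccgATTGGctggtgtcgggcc

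1700101I19Rik/Fam123c: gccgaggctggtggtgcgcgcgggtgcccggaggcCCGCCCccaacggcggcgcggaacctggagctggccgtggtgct

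Most divergent pairs carried H3K27ac. Peaks lay at 684 of the 808 regions (84.65%) in the first library and at 679 (84.03%) in the second, against 38.86% and 37.28% of the other promoters. The pairs thus stood 45.79 and 46.75 percentage points above the other promoters, which is far more than the gap between the libraries. A shared H3K27ac region lay at 671 pairs, or 83.04% (95% Wilson interval 80.3 to 85.47), against 35.93% of the others, and at 37.7% of all 21559 promoters, the background. The difference was 47.11 percentage points (95% Newcombe interval 44.29 to 49.63). These intervals cover the counting of promoters only, since all promoters share the same libraries, and no test was made.

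CpG content moved with this difference. The ratio of observed to expected CpGs over 500 bp on each side of the centre had a median of 0.7757 at pairs and 0.5065 at other promoters, and the GC content a median of 60.24% and 54.15%. When all promoters were split by this ratio into 5 CpG classes of equal size, 79.58% of pairs but 38.46% of the others fell in the top 2 classes. Other promoters weighted to the CpG classes of the pairs had H3K27ac at 59.64%, which leaves a difference of 23.41 points. Within the top class the shares were 92% of 350 pairs and 73.6% of 3962 others, and in the next 85.32% of 293 and 60.99% of 4019. In the middle class they were 69.05% of 126 and 33.07% of 4185. Pairs stood above the others within each of these classes, by a smaller margin than overall. Raising the threshold on the broad H3K27ac peaks to a −log10 q of 5 left 10.27% of pairs and 4.318% of others with the mark, a difference of 5.954 points.

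**Figure D1:**
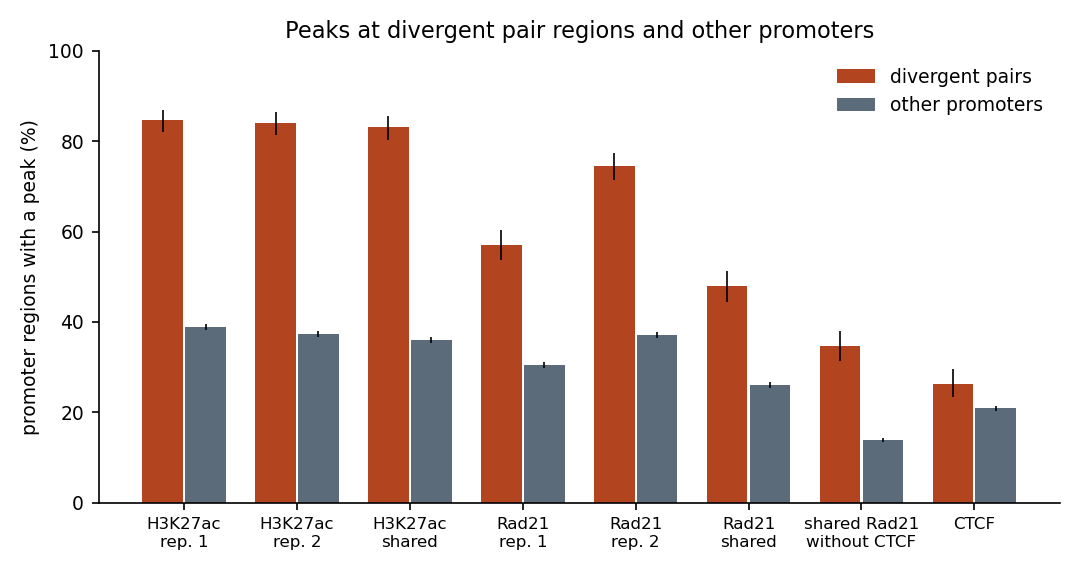
Bars give the share of promoter regions with a peak in each list, or in a shared region, for 808 divergent pairs and 20751 other promoters, with 95% Wilson intervals as error bars. Pairs stand above the other promoters in every list, with 83.04% against 35.93% for shared H3K27ac and 26.36% against 20.86% for CTCF.

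**Figure D2:**
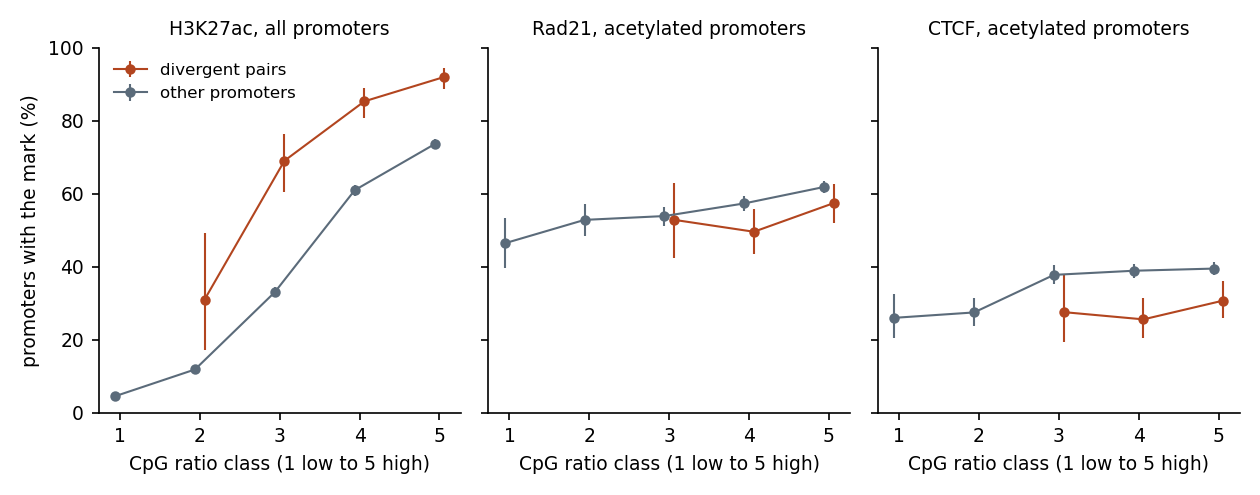
Points give the share of promoters with H3K27ac (left), and among acetylated promoters with Rad21 (middle) and CTCF (right), in 5 classes of the CpG ratio, with 95% Wilson intervals as error bars. Classes with fewer than 20 promoters are not drawn. Pairs lie above the others for H3K27ac in the classes drawn and below them for CTCF.

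The acetylation of a pair usually spanned both genes. Of the 671 acetylated pairs, 667 had a single H3K27ac region, 600 (89.42%) had acetylation on the sides of both genes and 599 had both TSSs covered. Among other acetylated promoters, 86.13% were acetylated on both sides of the TSS, a difference of 3.287 points that fell to 0.357 points at the CpG classes of the pairs. Without the first library the difference was 11.97 points, and without the second 4.768 points. In the 2000 bp beyond each TSS, the side of a pair with more acetylation had a median of 969 acetylated bp and the side with less 525 bp. Other promoters had 971 bp downstream and 531 bp upstream, where the sides are set by the direction of the gene and not by their values. Sorted by chromosome position instead, the left gene of a pair had a median of 708 bp and the right gene 726 bp. In a window of 2000 bp on each side of the centre, pairs had a median of 1695 acetylated bp with quartiles at 1216 and 2350 bp, and the others 1569 bp with quartiles at 1039 and 2362 bp. The medians differ by less than the spread within either group.

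A one-sided pair was Wrn/Purg, with TSSs 798 bp apart on chromosome 8. Wrn, the helicase lost in Werner syndrome, had 1702 acetylated bp on its side, and Purg, a gene of the Pur-alpha family, had 0. Acetylation of the other orientation lay at Plcd3/Acbd4, where it covered 0 bp on the side of Plcd3, a phospholipase gene, and 802 bp on the side of Acbd4. It began 1211 bp to the right of the midpoint and covered neither TSS. One-sided regions made up 71 of the 671 acetylated pairs (10.58%), and 34 of the 671 (5.067%) had no TSS covered.

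Rad21 was found at more pairs than other promoters in both libraries. The first gave 461 pairs (57.05%) against 30.49% of others, and the second 602 pairs (74.5%) against 37.19%. The libraries differed more for Rad21 than for H3K27ac, with 182 pairs called in the second alone and 41 in the first alone. A shared Rad21 region lay at 387 pairs, or 47.9% (44.47 to 51.34), against 26.03% of the others and 26.8% of all promoters, a difference of 21.87 points (18.39 to 25.37). At the CpG classes of the pairs the difference was 6.708 points, at a −log10 q of at least 5 it was 9.491 points, and without the first Rad21 library it was 37.32 points.

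Over all promoters, the difference was about as large for Rad21 away from CTCF. A shared Rad21 region that overlapped no CTCF peak lay at 280 pairs (34.65%) against 13.84% of others and 14.6% of all promoters, a difference of 20.81 points (17.58 to 24.19). It was 11.32 points at the CpG classes of the pairs, 11.14 points at the stricter threshold and 36.5 points without the first Rad21 library. The CTCF list, from 1 library with no replicate check, also holds calls with a q above 0.05. A q of at most 0.05 was reached by 66.16% of 263 CTCF summits at pairs and 74.12% of 4857 at others. Rad21 free of CTCF overlaps none of these calls, weak ones included. CTCF itself lay at 213 pairs (26.36%) against 20.86% of others and 21.1% of all promoters. The difference was 5.5 points (2.526 to 8.692). This difference turned to -4.73 points at the CpG classes of the pairs and was 0.9926 points at a −log10 q of at least 5, so its direction depends on how CpG content is handled.

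Among acetylated promoters the picture was different. Rad21 lay at 358 of 671 acetylated pairs (53.35%) and at 57.89% of 7456 acetylated others, a difference of -4.533 points (-8.477 to -0.623). With the second Rad21 and H3K27ac libraries alone it was 2.056 points and with the first alone -0.605 points, so the libraries do not settle its direction. A shared Rad21 region free of CTCF lay at 265 acetylated pairs (39.49%) and at 35.7% of acetylated others. That difference was 3.791 points (0.0001547 to 7.691), far below the 20.81 points over all promoters. CTCF lay at 187 acetylated pairs (27.87%) and at 37.82% of acetylated others, a difference of -9.953 points (-13.39 to -6.275). It was -9.311 and -8.906 points with single H3K27ac libraries and -10.98 points at the CpG classes of the pairs. CTCF was therefore found at fewer acetylated pairs than acetylated other promoters under each of these settings, and -3.245 points remained where all lists were held to a −log10 q of at least 5.

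The marks were then combined, with Rad21 counted only where both libraries shared a region. H3K27ac with neither shared Rad21 nor CTCF lay at 268 pairs (33.17%), and H3K27ac with Rad21 and no CTCF at 216 (26.73%). All 3 marks lay at 142 (17.57%), and H3K27ac with CTCF and no shared Rad21 at 45 (5.569%). Many pairs without shared Rad21 had a peak in 1 list. Of the 671 acetylated pairs, 430 had Rad21 in the first list and 550 in the second, against 358 with a shared region. Among other promoters, all 3 marks (11.22%) were more frequent than H3K27ac with Rad21 and no CTCF (9.575%), the reverse of the order at pairs. Acetylated pairs with shared Rad21 had longer acetylation, a median of 1988 bp in that window against 1495 bp at those without a shared region. The same held at other promoters, with 1852 and 1294 bp, so the relation is not particular to pairs. Acetylated pairs with and without shared Rad21 were alike in the distance between the TSSs, with medians of 137 and 134 bp. They were close in CpG ratio, with medians of 0.8064 and 0.7799.

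Where pairs had Rad21, the peaks were seldom among the highest. The fold enrichment is the authors' value, computed by their caller over local background, and was used within a list only. In the first list the highest Rad21 fold of a pair had a median of 6.136, against 7.111 at other promoters with a peak, and in the second 6.915 against 7.535. The ratios of medians were 0.8629 and 0.9178, a mean on the log2 scale of -0.17 ± 0.06 (SD, n = 2). Of the pairs with a peak, 8.026% and 10.3% reached the upper quartile of their list, against 18.51% and 20.58% of others. CTCF peaks at pairs were lower too, with a median fold of 5.551 against 6.873. They had the CTCF core consensus within 50 bp of the summit at 52.85% of 263 summits, each counted once where regions overlap, against 59.52% of 4857 summits at other promoters.

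Rad21 summits gathered between the start sites. The interval between the TSSs makes up 4.971% of the length of the pair regions, and it held 133 of 702 Rad21 summits (18.95%) in the first list and 230 of 1038 (22.16%) in the second. Summits were thus 4.469 and 5.442 times as dense between the TSSs as in the flanks. CTCF summits were spread more widely, with 33 of 266 (12.41%) between the TSSs, 2.708 times the density of the flanks. The median distance from the centre was 271.5 and 247.5 bp for Rad21 and 498 bp for CTCF. At other promoters, where the centre is the TSS, it was 328 and 337 bp for Rad21 and 455 bp for CTCF. A higher density near the centre was thus also seen at other promoters.

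**Figure D3:**
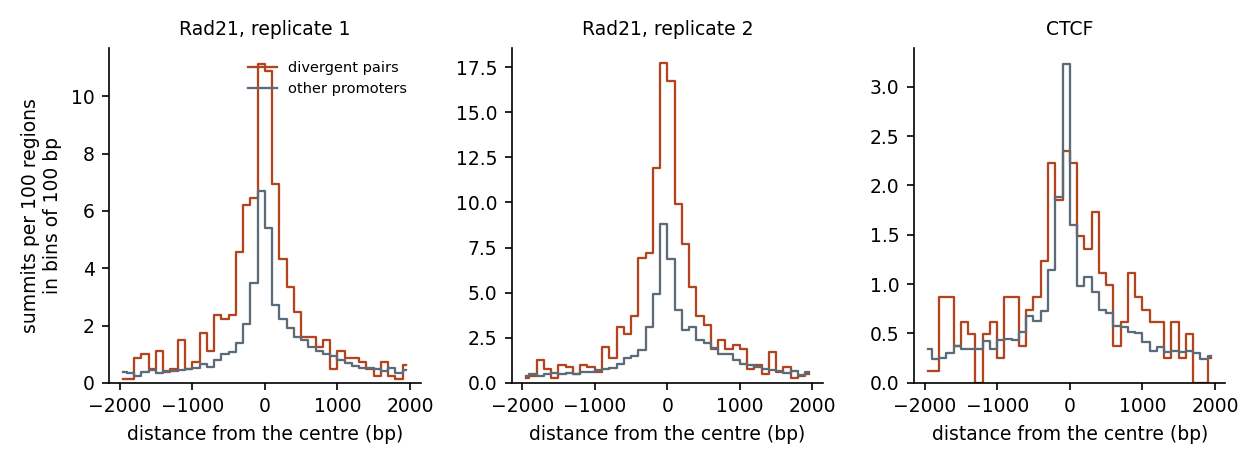
Lines give summits per 100 regions in bins of 100 bp by distance from the centre, which is the midpoint of the TSSs for the 808 pairs and the TSS for the 20751 other promoters, with downstream to the right for the latter. In the bins next to the centre, pairs reach 11.1 and 17.7 Rad21 summits per 100 regions in the 2 lists against 6.69 and 8.82 at other promoters, while CTCF reaches 2.35 against 3.23.

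Up to 1000 bp, H3K27ac was most frequent at the closest pairs, while Rad21 and CTCF did not rise or fall steadily with the distance between the TSSs. H3K27ac lay at 87.25% of the 298 pairs 1 to 100 bp apart, at 82.59% of 224 and 82.61% of 115 in the next 2 classes of 100 bp, at 75% of 88 pairs over 300 and up to 500 bp apart and at 78.31% of 83 pairs over 500 bp apart. The interval of the closest class (82.98 to 90.57) narrowly misses that of pairs over 300 and up to 500 bp apart (65.04 to 82.87). It overlaps that of pairs over 500 bp apart (68.3 to 85.82), and neighbouring classes overlap too. Rad21 ranged from 41.96% to 55.42% over these classes and CTCF from 24.11% to 31.3%. Beyond the limit, the 423 divergent pairs over 1000 and up to 5000 bp apart had H3K27ac at 63.59% (58.9 to 68.04), Rad21 at 45.86% and CTCF at 40.43% (35.86 to 45.17). Among acetylated pairs, CTCF lay at 27.87% up to 1000 bp and at 52.79% (46.83 to 58.67) beyond it. Regions of distant pairs are longer, and in a fixed window of 2000 bp on each side of the midpoint the share was 51.35% up to a distance of 2000 bp and 39.41% from there to 5000 bp.

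**Figure D4:**
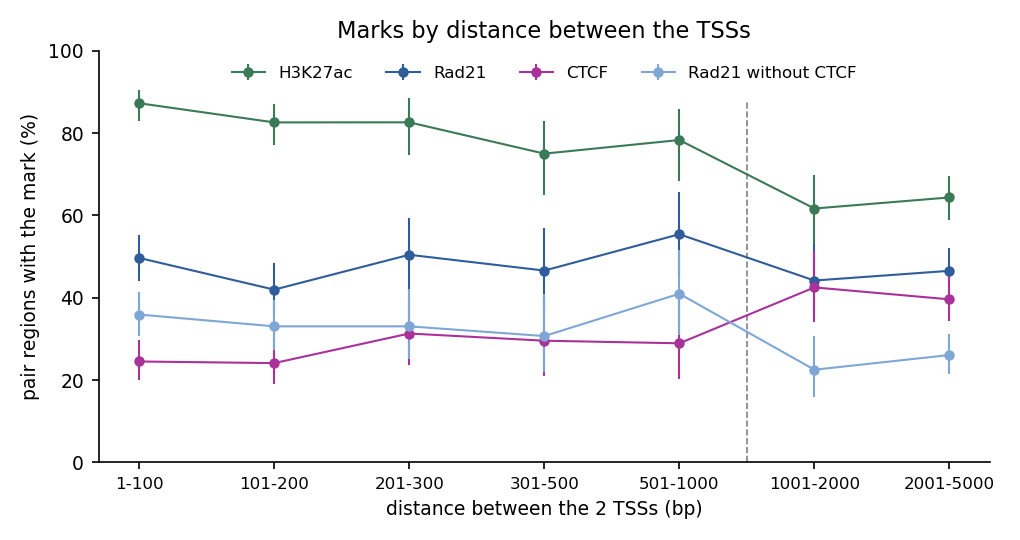
Points give the share of divergent pair regions with each mark by distance between the TSSs in bp, with 95% Wilson intervals as error bars, and the dashed line marks the limit of 1000 bp. H3K27ac falls from 87.25% at 1 to 100 bp to 61.67% just beyond the limit, at up to 2000 bp, and CTCF rises from 24.5% to 42.5%.

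Just inside the limit, the 12 pairs within 100 bp of it had H3K27ac at 7, Rad21 at 6 and CTCF at 4. Just outside it, the 21 pairs within 100 bp of it had H3K27ac at 16, Rad21 at 11 and CTCF at 14. The pair nearest the limit inside was Btf3l4/Txndc12 on chromosome 4, 987 bp apart, with H3K27ac folds of 2.55 and 2.569, Rad21 at 3.905 and 5.609 and no CTCF peak. The nearest outside was Nacc1/Trmt1 on chromosome 8, 1004 bp apart, which had all 3 marks.

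Head-to-head genes whose 5′ ends overlap were not pairs under the rule, since their 5′-most TSSs do not leave an interval between them. The 419 such pairs with an overlap of at most 1000 bp had H3K27ac at 79% (74.84 to 82.63) and Rad21 at 49.16% (44.41 to 53.94), with intervals that overlap those of the pairs. CTCF lay at 35.32% (30.9 to 40.01), above the 26.36% (23.44 to 29.51) of pairs with an interval, and at 39.88% (34.75 to 45.24) of the acetylated ones against 27.87% (24.61 to 31.38).

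Sequence motifs were counted on both strands within 150 bp on each side of the centre, as a description of letters and not of bound sites. The ETS core CCGGAAG, the site of factors such as GABPA, was in 28.22% of pairs, 10.21% of other promoters and 10.88% of all promoters of the same length. It was in 16.41% of others weighted to the CpG classes of the pairs. The YY1 core AAGATGGC was in 8.292% of pairs and 3.479% of others, 5.021% at the same CpG classes, and the NRF1 core GCGCATGC in 6.559% and 2.863%, 4.905% at the same classes. The GC box GGGCGG was in 67.33% and 44.14%, but in 69.8% of others at the same classes. The TATA box TATAAA was in 4.703% of pairs and 11.34% of others, and in 5.174% at the same classes. CCAAT was in 43.07% of pairs, 35.32% of others and 32.8% of others at the same classes. The ETS and YY1 cores and CCAAT thus remained more frequent at pairs at the same CpG classes, with a wider gap for CCAAT than before weighting. The NRF1 core and the GC and TATA boxes did not differ by more than 3 points. The centre lies between the TSSs at pairs but on the TSS at others, so the windows cover unlike stretches. The CTCF core consensus, with up to 2 mismatches, was in 19.31% of pairs, 21.86% of others, and 26.02% of others at the same classes.

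Pairs with the ETS core had H3K27ac at 92.11% and those without at 79.48%. The figures were 97.01% and 81.78% for YY1 and 94.34% and 82.25% for NRF1. Mcm4/Prkdc, printed above with an ETS core, and Smyd1/Cd8b1, with an NRF1 core, were among the acetylated ones. The share went the other way for the E box CAGCTG, with 76.14% and 83.89%, and for the CTCF core consensus, with 79.49% and 83.9%. It was also lower with the RUNX core TGTGGT (79.49% and 83.42%), the TATA box (81.58% and 83.12%) and the CRE TGACGTCA (82.86% and 83.05%). The shares with and without a motif were not weighted by CpG class. For Rad21 the widest gap was at the CRE TGACGTCA, with 31.43% of the 35 pairs that hold it and 48.64% of those without. It was 55.77% with and 46.01% without the CTCF core consensus, 52.19% and 46.21% for the ETS core, and 43.68% and 51.09% for CCAAT.

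Genes for DNA repair and replication were often in pairs, and all their pairs were acetylated. Of 106 such genes, 33 (31.13%) were in a divergent pair, against 7.154% of all genes, and they formed 32 pairs. Shared H3K27ac lay at 32 of 32, where 83.04% of all 808 pairs had it. Rad21 lay at 17 (53.12%) and CTCF at 8 (25%), both near the 47.9% and 26.36% of all pairs. List members outside pairs were also mostly acetylated, at 65 of 73 (89.04%), with Rad21 at 53.42% and CTCF at 36.99%. Over all genes outside pairs these shares were 35.93%, 26.03% and 20.86%. The list was chosen with earlier results of these data known and is given as counts only.

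The Mcm4/Prkdc region had H3K27ac folds of 6.528 and 2.831 in the 2 lists and 2435 acetylated bp, with 928 bp on the side of Mcm4 and 1040 bp on that of Prkdc. Rad21 was called there in the second list alone, at a fold of 7.025 with its summit at -202 bp from the midpoint, where negative positions lie to the left, and CTCF was not called. Atm/Npat was alike, with H3K27ac folds of 10.76 and 1.83, Rad21 in the second list alone at 4.683 and no CTCF peak. Brca1/Nbr1, where Brca1 acts in repair by homologous recombination and Nbr1 encodes an autophagy receptor, had H3K27ac at 2.329 and 2.36, Rad21 in the second list alone at 5.939 and CTCF at 2.085. In these 3 pairs Rad21 depends on which library is read.

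Lig4/Abhd13 had the highest Rad21 folds of the DNA repair pairs, 19.73 and 26.74, with CTCF at 4.912. Lig4 encodes the ligase that seals broken ends, also during rearrangement of antigen receptor genes. Dclre1b/Ap4b1, with a nuclease of telomere ends and an adaptor subunit, had Rad21 at 15.39 and 12.29 with no CTCF peak, and a summit at -69 and -65 bp from the midpoint in the 2 lists. Hscb/Chek2, where Chek2 is a checkpoint kinase, had Rad21 at 10.81 and 16.71 and CTCF at 9.633. Tsc2/Nthl1, with a tumour suppressor of the mTOR pathway and a base excision glycosylase, had Rad21 at 8.096 and 7.712 and no CTCF peak.

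The counts for the further lists are read beside the shares over all 808 pairs, which were 83.04% for H3K27ac, 47.9% for Rad21 and 26.36% for CTCF. Shares of list genes outside pairs are read beside 35.93%, 26.03% and 20.86% of all genes outside pairs. All 16 pairs with a gene of the mitochondrial ribosome had H3K27ac, 11 (68.75%) had Rad21 and 4 (25%) CTCF. Genes of this list outside pairs had the marks at 93.44%, 59.02% and 34.43%. All 22 pairs with a gene of oxidative phosphorylation, picked by symbol and so including the assembly factor Ndufaf2, had H3K27ac, with Rad21 at 10 (45.45%) and CTCF at 7 (31.82%), both near the shares over all pairs. Outside pairs, genes of this list had the marks at 82.86%, 58.57% and 37.14%. Mrps12/Sars2, a ribosomal protein and the mitochondrial seryl-tRNA synthetase, had Rad21 at 13.54 and 14.9 and CTCF at 10.55. Tatdn1/Ndufb9, with a subunit of complex I, had Rad21 at 11.53 and 13.79 and CTCF at 5.541. By contrast, Sdhd/Timm8b, with a subunit of complex II and a chaperone of mitochondrial import, had H3K27ac at 4.407 and 2.659 and no Rad21 or CTCF peak in any list.

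Few pairs of the cytosolic ribosome had shared Rad21. All 9 pairs with a cytosolic ribosomal protein gene had H3K27ac, but a shared Rad21 region lay at 2 (Rpl9/Lias and Iqcg/Rpl35a) and CTCF at 1 (Zwilch/Rpl4). Ribosomal protein genes outside pairs had Rad21 at 43 of 75 (57.33%) and CTCF at 38 of 75 (50.67%). With 9 pairs the count is small, and Rad21 was called in 1 or both lists without a shared region at 6 of the others, at folds between 3.481 and 6.686. The 7 pairs with a tRNA synthetase gene had H3K27ac at 7, Rad21 at 5 and CTCF at 2, where 96.43%, 57.14% and 42.86% of the list's genes outside pairs had these marks. The 5 pairs with a proteasome gene had H3K27ac at 5, Rad21 at 3 and CTCF at 0, where the genes outside pairs stood at 88.89%, 55.56% and 36.11%. Counts this small do not set either list apart from all pairs.

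Histone genes were the list most often in pairs, with 27 of 67 replication-dependent histone genes (40.3%) in 14 pairs. They encode the bulk histones made in S phase, and most pairs join an H2A and an H2B gene. Here H3K27ac lay at 10 of 14 (71.43%), Rad21 at 4 (28.57%) and CTCF at 2 (14.29%), each below the share over all pairs but in a small count. Histone genes outside pairs had the marks at 85%, 45% and 15%. Hist1h2bl/Hist1h2ai had Rad21 at 15.09 and 31.61 and CTCF at 8.082, and Hist2h2ac/Hist2h2be had Rad21 at 10.87 and 14.05 with no CTCF peak. Hist1h2bq/Hist1h2ao, Hist1h2ap/Hist1h2br and Hist1h2ba/Hist1h2aa had no peak in any list, and Hist1h2ah/Hist1h2bk had H3K27ac in the first list alone. Histone genes are near-identical copies, and how the authors placed reads with several matches is not given in the sources used here, so these values are uncertain.

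Chaperone genes, picked by symbol, gave 15 pairs with H3K27ac at 13 (86.67%), near the share over all pairs, Rad21 at 9 (60%) and CTCF at 5 (33.33%). Hspa14/Cdnf, with H3K27ac and Rad21, is counted among them more than once, at distances of 271 and 216 bp. Chaperone genes outside pairs had the marks at 64.38%, 49.32% and 20.55%. The pairs without H3K27ac were Hspb2/Cryab, small heat shock proteins of muscle and lens, and Hspa1a/Hspa1l, of the inducible Hsp70 family, with no peak in any list. Sirt1/Dnajc12, with a NAD-dependent deacetylase, had Rad21 at 14.5 and 16.39 and CTCF at 12.39. The zinc finger Zfp genes were in pairs at 19 of 371 (5.121%), and 15 of their 17 pairs were acetylated against 55.68% of those outside pairs. Ccdc92/Zfp664, acetylated, is counted more than once, at distances of 267 and 319 bp. None of 1087 olfactory receptors was in a pair, against 7.154% of all genes. None of 24 clustered protocadherins and 24 neuronal genes was in a pair either, but lists this small are not set apart by it.

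Of 54 T cell genes, 1 (1.852%) was in a pair, against 7.154% of all genes, a count too small to set the list apart. Of those outside pairs, 88.68% had H3K27ac, 83.02% Rad21 and 33.96% CTCF, against 35.93%, 26.03% and 20.86% of all genes outside pairs. The member in a pair was Cd8b1, which met Smyd1 head to head at chr6:71272227-71272830. Its region had H3K27ac folds of 8.095 and 3.446 and was acetylated over all of its 4604 bp. Rad21 was called at folds of 29.09 and 26.12, with 6 summits in the first list and 7 in the second, mostly over the interval and the Cd8b1 side, with 1 of the second list on the Smyd1 side at -688 bp. No CTCF peak lay in the region, but the shared Rad21 region reached a CTCF peak outside it, so the pair is not counted among those with Rad21 free of CTCF. Its CpG ratio of 0.2062 was far below the median of 0.7757 of the pairs.

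The other pairs with the highest Rad21 and no CTCF peak in the region were chosen by these values, which are therefore a description. Pip4k2a/4930426L09Rik had Rad21 at 26.99 and 34.77, with 6 summits in each list, and H3K27ac over its whole 4218 bp at folds of 3.586 and 2.797. Mettl6/Eaf1, with a tRNA methyltransferase and an elongation factor partner, had Rad21 at 19.02 and 18.89, also in a region acetylated over its whole 4050 bp. Tatdn3/Nsl1, where Nsl1 is a kinetochore protein, had a single Rad21 summit in each list, at -21 and -30 bp from the midpoint, with folds of 13.33 and 17.17 in 850 acetylated bp. Sirt6/Ankrd24, with a chromatin deacylase, had Rad21 at 14.66 and 15.81 and acetylation on the Sirt6 side only, 879 bp against 0 bp. Strong Rad21 without CTCF thus occurred in regions acetylated throughout and in narrow or one-sided ones.

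The pairs with the highest CTCF folds and shared Rad21 were led by Plcd3/Acbd4 on chromosome 11, where CTCF stood at 69.29 and Rad21 at 85.86 and 81.46. The summits lay at 1176 bp for CTCF, at 1189 bp for Rad21 in the first list and at 1191 and 1688 bp in the second, all on the Acbd4 side and not between the TSSs. At Exd1/1500003O03Rik, printed above, the highest CTCF fold was 63.81 and Rad21 stood at 9.115 and 5.983. CTCF summits lay there at -556 and -138 bp. Wrap53/Trp53, where Trp53 encodes p53 and Wrap53 a protein of Cajal bodies, had CTCF at 56.24 and Rad21 at 14.5 and 16.64, and 97.66% of its region was acetylated. Exosc8/Alg5, with a subunit of the RNA exosome and an enzyme of glycan synthesis, had CTCF at 50.7 and Rad21 at 16.09 and 17.59. There a CTCF summit at -23 bp and Rad21 summits at -18 and -23 bp lay between the TSSs. Tas1r1/Nol9, with a taste receptor and a nucleolar kinase, had CTCF at 23.71 and Rad21 at 16 and 14.04.

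**Figure D5:**
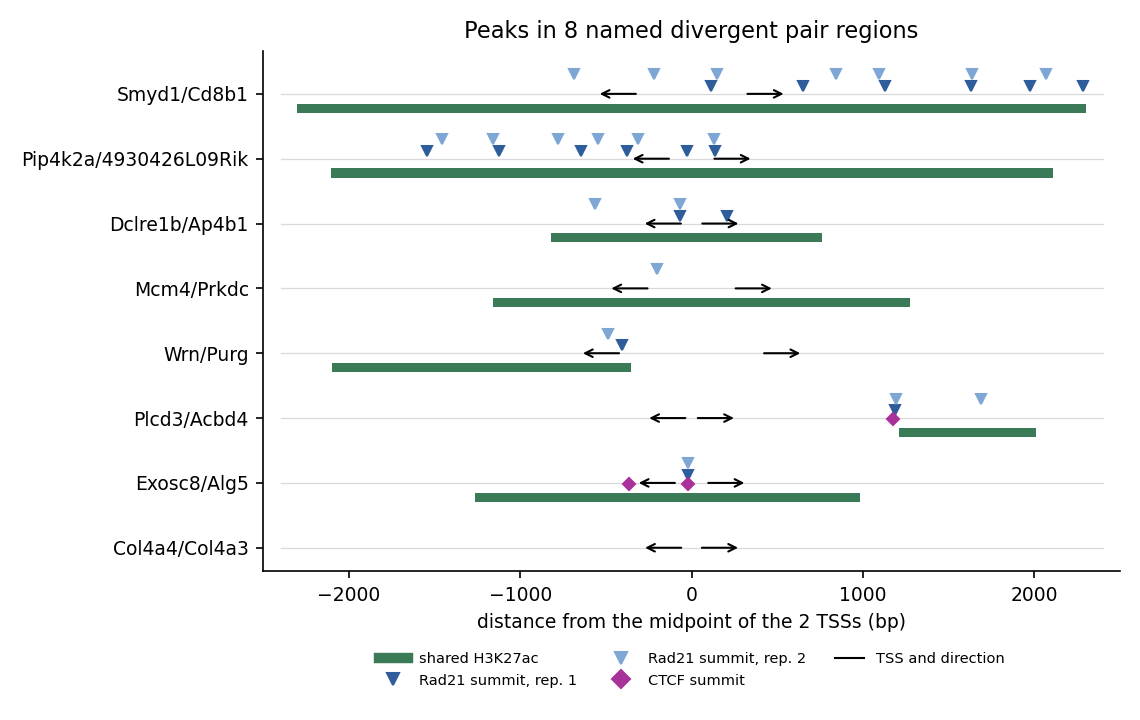
Rows show 8 named pair regions by distance in bp from the midpoint of the TSSs, with arrows for the TSSs and the direction of transcription, bars for shared H3K27ac, triangles for Rad21 summits of each list and diamonds for CTCF summits. Exosc8/Alg5 has Rad21 and CTCF between the TSSs, Plcd3/Acbd4 has them over 1100 bp to the right, and Col4a4/Col4a3 has no peak.

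Among the pairs with most acetylated length were Zbtb25/Zbtb1 (4707 bp), Smyd1/Cd8b1 (4604 bp), 5031425E22Rik/Mll5 (4523 bp) and Hnrnpa2b1/Cbx3 (4416 bp). Zbtb1 is a zinc finger factor needed for lymphocyte development, and its region had Rad21 at 5.802 and 11.3 and CTCF at 5.207. Hnrnpa2b1/Cbx3, a widely used housekeeping promoter, had a CpG ratio of 1.03 around its centre. Its region had Rad21 at 6.822 and 13.41, and a CTCF peak at 6.048 that overlaps the region while its summit lies outside.

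Of 31 head-to-head pairs known from textbooks, 12 met the rule. Of these, 11 had H3K27ac, 7 Rad21, 3 CTCF and 6 Rad21 free of CTCF, where 83.04%, 47.9%, 26.36% and 34.65% of all pairs had these, so the textbook pairs are given for their names and not as a group apart. The exception was Col4a4/Col4a3, which encodes collagens of basement membranes made by epithelia and had no peak in any list. Gart/Son, with an enzyme of purine synthesis and a splicing cofactor, had all 3 marks, with Rad21 at 15.51 and 8.871 and CTCF at 8.904. Pdcd10/Serpini1, with a regulator of vessel integrity and neuroserpin, had H3K27ac at 1.742 and 9.89, with 984 acetylated bp on the side of Pdcd10 and 23 bp on that of Serpini1. Toe1/Mutyh, with a deadenylase and a base excision glycosylase, had H3K27ac at 2.521 and 2.961 and Rad21 in the second list alone at 3.725. A further 14 textbook pairs, such as Hspd1/Hspe1, Surf1/Surf2 and Tap1/Psmb9, overlap at their 5′ ends in the annotation, and 13 of them had H3K27ac, 6 Rad21 and 5 CTCF. The missing one was Col4a1/Col4a2, again of collagen. Cd3d/Cd3g, subunits of the T cell receptor complex, start more than 1000 bp apart, and 4 met neither description.

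Of the 137 pairs without a shared H3K27ac region, 115 had H3K27ac in neither list and 22 in 1 list. Their median CpG ratio was 0.6564, against 0.7873 at acetylated pairs. No peak of any list lay at 79 pairs (9.777%), against 51.13% of other promoters, and their median CpG ratio was 0.5731. The first 5 of these by name were 1700026L06Rik/Ak8, 1700101I19Rik/Fam123c, 2010002M12Rik/Ifit1, 4921536K21Rik/Dusp18 and 4930451C15Rik/P2rx6. Ifit1, an interferon-induced gene, had a CpG ratio of 0.1181 at its promoter.

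Rad21 was rare where H3K27ac was missing, at 29 of 137 pairs (21.17%, 15.16 to 28.75), yet more frequent than at other unacetylated promoters (8.161%). In 15 of these pairs a Rad21 region was free of CTCF, 10.95% against 1.58% of unacetylated others. These shares were not weighted by CpG class, so how far the gaps go with CpG content was not tested. Of the 15, 8 had an H3K27ac peak in 1 list and 7 in none, and the pairs Foxa3/Sympk and Basp1/Gm5468 also held a CTCF peak in the region. At the other 13, of which 2 share a gene, the highest Rad21 folds ranged from 3.481 to 8.855, among them Mmab/Mvk, with enzymes of cobalamin and sterol metabolism, at 4.463 and 5.457, and Poll/Dpcd, with a DNA polymerase of end joining, at 5.021 and 4.966.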

How the data were processed

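ChIP-seq peak lists of wild type double-positive thymocytes were used, 1 per library. Genome build mm9 and, for the series as a whole, CASAVA 1.82 and 1.84, Bowtie 1.0.0 and MACS2 2.1.0 are named per the submitters' processing notes, without roles. No source used here gives the caller's thresholds or controls. The fold enrichment of a peak is a ratio over local background, deposited by the authors. The −log10 p and −log10 q values were deposited as the caller wrote them. The score in the authors' files was not used. The depth is unknown.

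Genes came from GENCODE vM1 on the same build. Only chromosomes 1 to 19 and X were used. Peaks of both replicates that overlapped by at least 1 bp were merged into shared regions. Shares carry 95% Wilson intervals and differences 95% Newcombe intervals, computed with Python 3.11.15, numpy 2.4.6 and pandas 2.3.3. No test was made, and the counting was checked on simulated data. The rule that picks the pairs reads the annotation and no measured value, but it, the gene lists and the rules for named pairs were set with earlier results of these data known. Named are the textbook pairs that meet the rule, the 5 with the best worse-of-both rank by Rad21 fold and no CTCF peak, the 5 with the highest CTCF fold and shared Rad21, the 5 with most acetylated bp, the first 5 by name with no peak, every pair with a T cell gene and the pairs nearest the limit. Some items that this rule names are not reported here. Pairs named from the other gene lists and among unacetylated pairs were picked after their values were seen. Alternatives were stricter peaks, more overlap, single libraries, other windows, distances and start sites, added overlapping pairs, others at the same CpG classes and, chosen after seeing the data, each gene of a pair by itself.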

Additional observations from a re-analysis of the deposited data

How the results depend on the processing

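Each main value had a band of 1 SD of its single-library values on either side, or the counting interval for CTCF at all promoters. Of the recomputed values, 77 stayed within this band, 33 moved beyond it and 2 reversed. The band is not centred on the single-library values. For CTCF among acetylated promoters it reflects the H3K27ac libraries only. For acetylation of both sides it runs from -1.805 to 8.378 points, so even a lost difference counts as within it. The first reversal was the CTCF difference at -4.73 points against others at the CpG classes of the pairs, and the second was the Rad21 difference among acetylated promoters, which ran from -0.605 to 2.056 points when 1 replicate was left out. Leaving out 1 replicate gave 45.79 to 46.75 points for H3K27ac, 26.57 to 37.32 for Rad21, 25.84 to 36.5 for Rad21 free of CTCF and -9.311 to -8.906 for CTCF among acetylated promoters. It also gave 155 to 205 bp for the difference in acetylated length (126 bp with both) and 4.768 to 11.97 points for acetylation of both sides. At the CpG classes of the pairs, the differences were 23.41 points for H3K27ac, 6.708 for Rad21, 11.32 for Rad21 free of CTCF and -10.98 for CTCF among acetylated promoters.

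Where Rad21 and CTCF peaks needed a −log10 q of 5 or more, the differences were 9.491 points for Rad21, 0.9926 for CTCF and 11.14 for Rad21 free of CTCF. Among acetylated promoters they were -7.892 points for Rad21 and -8.528 for CTCF, and the ratio of Rad21 folds was 0.8386. With the H3K27ac lists held to it too, they were 5.954 points for H3K27ac, -9.323 for Rad21 and -3.245 for CTCF among acetylated promoters and 75.5 bp for acetylated length. Start sites of coding transcripts gave 48.04 points for H3K27ac and -8.918 for CTCF among acetylated promoters. CTCF among acetylated promoters was -10.4 points in equal windows of 2000 bp on each side, -8.842 with 500 bp flanks and -10.39 for each gene by itself. Flanks of 500 bp gave a ratio of Rad21 folds of 0.9457. With overlapping pairs added, CTCF differed by 9.134 points, and by -5.851 among acetylated promoters. The causes were not tested. No paired analysis was possible because no result comes from a test between groups of samples. Peak lists without read counts limit what a missing peak can show.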
